A study of Mus musculus with 18 samples.

Results

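The genes described here are 10 transcripts of the circadian clock, Per1, Per2, Per3, Cry1, Cry2, Bmal1, Clock, Nr1d1, Nr1d2 and Dbp. They were chosen by name, and all 10 were found among the 55414 genes of the count table and among the 21772 genes tested. RNA was sequenced from C2C12 myotubes, muscle fibre-like cells formed by fusion of a mouse myoblast line, in 18 libraries of 6 groups with 3 libraries each. All cells were transfected at confluence with a pool of siRNAs, which was non-targeting (siNtc), directed against Erk3 (siErk3) or directed against Mk5 (siMk5), and were differentiated for 6 days. For the last 16 h the myotubes were kept in medium without serum that held either BSA or 0.5 mM palmitic acid carried on BSA (PA), so that the groups were siNtc BSA, siErk3 BSA, siMk5 BSA, siNtc PA, siErk3 PA and siMk5 PA. All groups came from 1 cell line, and the labels do not say that the 3 libraries of a group came from separate cultures, so p-values measure the spread between these libraries. No time of day or synchronisation step is given and each group was sampled at 1 time, so the values are levels at that time and hold no phase or rhythm.

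In vertebrates, the clock proteins Bmal1 and Clock bind together to E-boxes, DNA sites with the letters CACGTG, and switch on the genes of their own repressors, the Per and Cry proteins. A second loop is formed by the nuclear receptors Nr1d1 and Nr1d2, which repress Bmal1 through sites that they share with the ROR activators. A further loop runs through D-boxes, which are bound by the activators Dbp, Tef and Hlf and by the repressor Nfil3. In skeletal muscle, the clock times the transcription of genes for fuel choice and differentiation. Serum and glucocorticoids are known to reset the clock of cultured cells, in part through fast induction of Per1 and Per2.

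The members lie on 8 chromosomes of GRCm39, with coordinates as given by the count table. The activator genes are Bmal1 (ENSMUSG00000055116, chr7:112806672-112913333) and Clock (ENSMUSG00000029238, chr5:76357715-76452639). The repressor genes are Per1 (ENSMUSG00000020893, chr11:68986043-69000786), Per2 (ENSMUSG00000055866, chr1:91343704-91387046), Per3 (ENSMUSG00000028957, chr4:151088109-151129122), Cry1 (ENSMUSG00000020038, chr10:84967564-85020928) and Cry2 (ENSMUSG00000068742, chr2:92233991-92264388). The receptor genes are Nr1d1 (ENSMUSG00000020889, chr11:98658758-98666159) and Nr1d2 (ENSMUSG00000021775, chr14:4230569-4265642), and Dbp (ENSMUSG00000059824, chr7:45354512-45359627) stands for the clock output. Of the exonic bases of Dbp, 18% overlap Sphk2 on the opposite strand, and 8.5% of those of Nr1d1 overlap Thra on the opposite strand. Libraries were made and counted by strand.

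Exact matches to the E-box and D-box patterns given below differed between the Per promoters. The 250 bases before each start site were read from GRCm39, with start sites of the Ensembl canonical transcripts in GENCODE M39. The sequences are shown because Per1 moved in the opposite direction to Per2 and Per3 in PA. Whether the matches have a part in these directions was not tested. The matched element is in capitals, and each sequence is written along the strand of its gene. The Per1 window (chr11:68989018-68989267, plus strand) lies in an intron of the longer Per1 transcripts and has an E-box that begins at base -22. The Per3 window (chr4:151129141-151129390, minus strand) has D-boxes at -187 and -140, and its distal end overlaps an exon of the non-coding gene Gm69444 on the other strand. The Per2 window (chr1:91387077-91387296, minus strand, bases -250 to -31) has a D-box at -125 and lies in an intron of the non-coding gene Gm70796 on the other strand.
Per1: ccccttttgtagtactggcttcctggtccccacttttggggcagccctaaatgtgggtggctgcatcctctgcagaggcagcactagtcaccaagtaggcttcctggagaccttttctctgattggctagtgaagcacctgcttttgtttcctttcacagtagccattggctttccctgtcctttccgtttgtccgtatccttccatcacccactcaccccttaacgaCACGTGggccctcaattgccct
Per3: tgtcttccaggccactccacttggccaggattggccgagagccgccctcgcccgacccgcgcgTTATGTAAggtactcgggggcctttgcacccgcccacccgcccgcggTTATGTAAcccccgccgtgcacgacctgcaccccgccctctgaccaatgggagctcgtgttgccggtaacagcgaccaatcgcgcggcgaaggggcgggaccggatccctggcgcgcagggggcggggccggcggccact
Per2: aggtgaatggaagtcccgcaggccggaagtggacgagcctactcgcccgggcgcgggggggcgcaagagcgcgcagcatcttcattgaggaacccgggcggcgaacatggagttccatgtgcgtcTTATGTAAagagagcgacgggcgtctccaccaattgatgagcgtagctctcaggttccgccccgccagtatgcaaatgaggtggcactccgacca

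Sites of 30 bases are shown for Cry1, Nr1d1 and Bmal1, which represent the repressor, the second loop and its target. The Cry1 E-box at -29 (chr10:85020961-85020990, minus strand) lies in an exon of the alternative transcript Cry1-205. The Nr1d1 E-box at -367 (chr11:98666509-98666538, minus strand) lies in an exon of the non-coding gene Gm31862 on the other strand. The Rev-Erb/ROR element of Bmal1 begins at +104 (chr7:112806736-112806765, plus strand) in the exon at the start of the canonical transcript.
Cry1: ggtgccggtggtCACGTGgggtgcatgccg
Nr1d1: cagttctccaatCACGTGaagctctcacgt
Bmal1: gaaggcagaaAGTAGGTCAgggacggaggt

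The patterns searched, on both strands, were CACGTG (E-box), TTANGTAA (D-box), ANTNGGTCA (Rev-Erb/ROR element), TGACGTCA (cAMP response element) and ACANNNTGT (core of the glucocorticoid response element), where N is any base. No sequence fits both the D-box and the cAMP response element, although they can share their inner letters. Within 250 bases before the start site, 2 of 10 members had an E-box (Cry1, Per1), 2 had a D-box (Per2, Per3), 1 had a Rev-Erb/ROR element (Dbp) and none had either of the other 2 patterns in this narrow window. Of 21599 promoters of the same length, 6.31% held an E-box, 1.82% a D-box, 1.85% a Rev-Erb/ROR element, 1.54% a cAMP response element and 4.56% the glucocorticoid pattern. Within 1000 bases on either side of the start site, E-boxes were found in 4 members (Cry1, Nr1d1, Per1, Nr1d2) and in 29.2% of all promoters, and D-boxes in 3 members (Nr1d2, Per3, Per2) and in 15.4%. In that window the Rev-Erb/ROR element was found in 3 members (Clock, Bmal1, Dbp) and in 14.3% of all promoters, the glucocorticoid pattern in 3 members (Per1, Nr1d2, Cry2) and in 38%, and the cAMP response element in 0 members and in 4.3%. A match describes the letters in this window and not the binding of a factor.

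Sequencing gave 13041979 to 28496727 counted read pairs per library, with a median of 22417470.5, and the members had between 59 (Dbp) and 3825 (Clock) counts in a library. Rn18s, a ribosomal RNA, took from 1.5% to 12.9% of the counts, with the 3 highest shares in siMk5 BSA. Markers of myotubes were high in every group, with a summed level of 10 genes between 14156 and 18413 CPM (counts scaled by library size with the TMM method of edgeR). The adipocyte markers Plin1 and Cidec and the macrophage marker Adgre1 were at 0 in all libraries. The 4 listed adipocyte genes together had 0 to 3 counts per library. Of 4 macrophage genes, the 2 tested (Cd68, Csf1r) together reached 0.825 to 1.91 CPM. The siErk3 pool lowered Mapk6, the gene of Erk3, from 132 ± 3.18 to 57.4 ± 2.64 CPM in BSA and from 232 ± 14.7 to 120 ± 11.4 CPM in PA (SD, n = 3). Mapkapk5, the gene of Mk5, was at 2.46 ± 0.126 CPM in siNtc BSA and 1.63 ± 0.422 CPM in siMk5 BSA (SD, n = 3). This difference did not pass edgeR's quasi-likelihood test (adjusted p = 0.469), and in PA the log2 difference of -0.485 was not called either. The siMk5 groups are therefore named by their label. For the proteins, the paper reports silencing of both kinases by Western blot.

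Per length of transcript, the nuclear receptor genes were the most abundant members. Levels between genes are given as RPKM, here the TMM-scaled CPM per kilobase of exon. In siNtc BSA, Nr1d1 was at 15.3 ± 0.941 RPKM, Nr1d2 at 11 ± 0.481, Clock at 8.75 ± 0.481, Per1 at 5.63 ± 0.302 and Cry1 at 4.81 ± 0.105 (SD, n = 3), and no neighbours in this part of the order overlapped. Dbp (3.80 ± 0.608 RPKM), Bmal1 (3.46 ± 0.29), Per2 (3.36 ± 0.202) and Per3 (3.36 ± 0.138) followed, each overlapping the next. Cry2 was lowest at 2.69 ± 0.0952 RPKM. In siNtc PA the order was Nr1d2 (13.6 ± 0.526 RPKM), Nr1d1 (12.2 ± 0.777), Clock (10.4 ± 0.262), Cry1 (8.70 ± 0.428), Per1 (8.31 ± 0.202), Bmal1 (4.69 ± 0.478), Cry2 (4.01 ± 0.0634), Per2 (2.19 ± 0.263), Dbp (1.36 ± 0.225) and Per3 (1.3 ± 0.264). Only the pairs Cry1 and Per1 and Dbp and Per3 overlapped in this order. Cry2 thus stood last in BSA and above Per2, Dbp and Per3 in PA. In siErk3 BSA and siMk5 BSA the first 5 ranks and the last were as in siNtc BSA, except that Cry1 and Dbp overlapped. In siErk3 PA the order of all 10 was that of siNtc PA, with overlap also between Nr1d2 and Nr1d1, Nr1d1 and Clock, and Bmal1 and Cry2.

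The effect of PA was examined separately with each siRNA pool. Genes were called changed when the adjusted p of edgeR's quasi-likelihood test was below 0.05 over all 21772 genes and the fold change was above 1.3. With siNtc, 7 of 10 members were called, with Per1, Cry1, Cry2 and Bmal1 higher and Per2, Per3 and Dbp lower in PA. With siErk3, 7 were called, with Per1, Cry1 and Cry2 higher and Per2, Per3, Nr1d1 and Dbp lower. With siMk5, 8 were called, with Per1, Cry1, Cry2 and Bmal1 higher and Per2, Per3, Nr1d1 and Dbp lower. Of all genes tested, 30.6% were called with siNtc (15.5% higher, 15.1% lower), 32.1% with siErk3 (15.8% higher, 16.3% lower) and 29.7% with siMk5 (15.1% higher, 14.6% lower). All 10 members passed the adjusted p alone with each pool, beside 45.1%, 47.1% and 44.3% of all genes. In all 30 comparisons the 3 PA libraries lay apart from the 3 BSA libraries, as they did for 51.3%, 53.9% and 51.9% of all genes with siNtc, siErk3 and siMk5, and the exact permutation test of 3 against 3 libraries then gives 0.1, the smallest p it can give. The median log2 fold change of the members was 0.28, 0.22 and 0.23, beside -0.03, -0.01 and -0.01 for all genes. In bulk RNA, fewer cells of a type and less RNA per cell cannot be told apart.

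**Figure D1:**
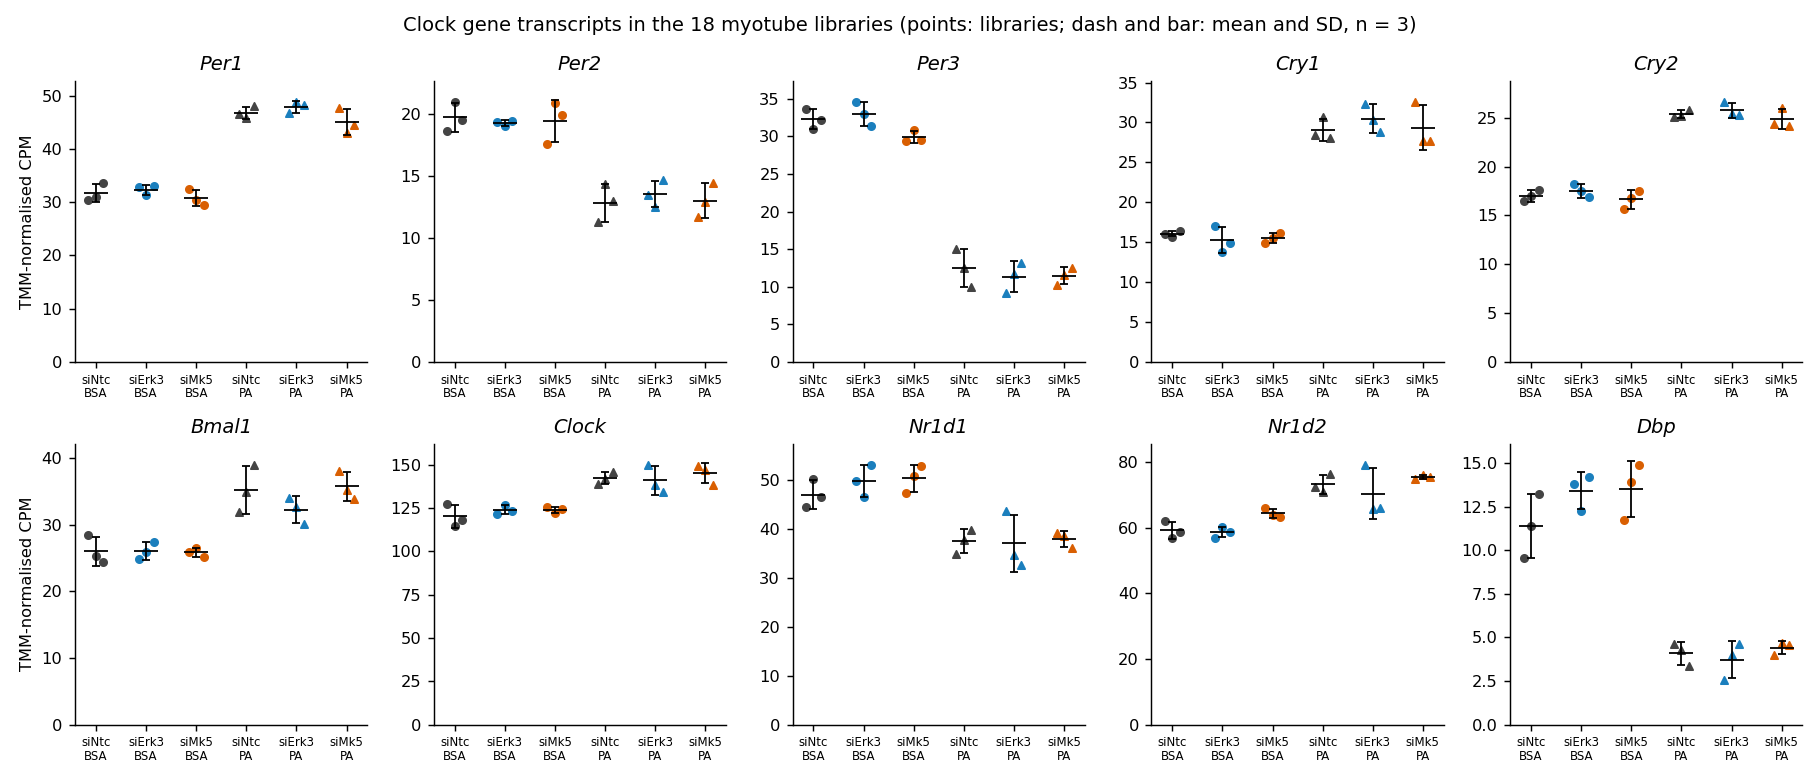
TMM-scaled CPM of the 10 clock genes (vertical axes, each starting at 0) in the 6 groups (horizontal axes), with 1 point per library, circles for BSA and triangles for PA, and the mean and SD of 3 libraries as dash and bar. For Per3 the 9 PA libraries sit between 9.15 and 15 CPM and the 9 BSA libraries between 29.4 and 34.6 CPM, and for Cry1 the PA libraries lie above all BSA libraries.

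Among the repressor genes, Per3 showed the strongest fall. Per3 was at 33.6, 31.0 and 32.2 CPM in siNtc BSA, 34.6, 33.0 and 31.4 in siErk3 BSA and 29.4, 30.8 and 29.5 in siMk5 BSA. In PA it was at 15, 12.5 and 9.90 CPM in siNtc, 9.15, 11.7 and 13.2 in siErk3 and 10.3, 11.6 and 12.5 in siMk5. The highest PA library was thus below the lowest BSA library by a wide margin, although the PA libraries of a group spread more than the BSA libraries in relative terms. The log2 fold change of Per3 was -1.36 ± 0.10 with siNtc, -1.55 ± 0.10 with siErk3 and -1.39 ± 0.10 with siMk5 (SE), which is 2.57-fold, 2.92-fold and 2.62-fold lower.

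Per2 also fell and Per1 rose. Per2, a repressor whose gene is a target of both E-box and D-box factors, was at 18.6, 21 and 19.5 CPM in siNtc BSA and 11.2, 14.3 and 12.9 CPM in siNtc PA. Its log2 fold change was -0.63 ± 0.09 with siNtc, -0.51 ± 0.09 with siErk3 and -0.58 ± 0.09 with siMk5 (SE). Per1 was at 30.5, 30.9 and 33.6 CPM in siNtc BSA and 46.5, 45.8 and 48.1 CPM in siNtc PA, without overlap. The log2 fold change of Per1 was 0.56 ± 0.06, 0.57 ± 0.06 and 0.55 ± 0.06 with siNtc, siErk3 and siMk5 (SE), so the 3 values lay within 1 SE of each other. The ratio of Per1 to Per3 per length, which is free of library scaling, was 1.55 to 1.88 in the BSA libraries and 5.30 to 8.71 in the PA libraries.

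Both Cry genes, which encode the main transcriptional repressors of the loop, rose with each pool. Cry1 was at 16.1, 15.7 and 16.4 CPM in siNtc BSA, 17, 13.8 and 15 in siErk3 BSA and 14.9, 15.5 and 16.2 in siMk5 BSA. In PA it was at 28.4, 30.7 and 28.0 CPM in siNtc, 32.4, 30.3 and 28.8 in siErk3 and 32.6, 27.7 and 27.7 in siMk5. All PA libraries were higher than all BSA libraries. The log2 fold change of Cry1 was 0.86 ± 0.08, 1.00 ± 0.08 and 0.92 ± 0.08, or 1.81-fold, 2.00-fold and 1.89-fold, with siNtc, siErk3 and siMk5. Cry2 was at 16.4, 17 and 17.6 CPM in siNtc BSA and 25.1, 25.2 and 25.8 CPM in siNtc PA, and over the 3 pools it was at 15.6 to 18.2 CPM in BSA and 24.1 to 26.6 CPM in PA. Its log2 fold change was 0.57 ± 0.07, 0.56 ± 0.06 and 0.58 ± 0.07 (SE). The ratio of Cry1 to Cry2 per length was 1.5 to 1.85 in BSA and 2.01 to 2.53 in PA, so Cry1 gained on Cry2 in every pool.

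The activator genes moved less. Bmal1 was at 28.5, 25.3 and 24.4 CPM in siNtc BSA and 31.9, 34.9 and 39.1 CPM in siNtc PA, and it was called with siNtc (log2 fold change 0.44 ± 0.07) and siMk5 (0.47 ± 0.07). With siErk3, where the levels were 24.8, 26.0 and 27.5 CPM in BSA and 34.0, 32.8 and 30.1 CPM in PA, its log2 fold change of 0.31 ± 0.07 stayed under 1.3-fold with an adjusted p of 0.000568 in edgeR. The difference between the pools was not called, since the interaction of siErk3 with PA for Bmal1 was -0.14 ± 0.10 (edgeR adjusted p = 0.877). The call with siNtc rested on the fold limit, since without siNtc BSA replicate 3 the value was 0.37 and without siNtc PA replicate 3 it was 0.35. Clock, the partner of Bmal1, was at 115 to 127 CPM in siNtc BSA and 139 to 146 CPM in siNtc PA, with log2 fold changes of 0.25 ± 0.05, 0.19 ± 0.05 and 0.23 ± 0.05 that stayed under 1.3-fold with each pool.

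The 2 Rev-Erb genes had opposite signs. Nr1d1 was at 44.4, 50.1 and 46.3 CPM in siNtc BSA and 34.9, 37.8 and 39.6 CPM in siNtc PA. In siErk3 it was at 49.7, 46.5 and 53.1 CPM in BSA and 43.7, 34.6 and 32.6 CPM in PA, the widest spread of any Nr1d1 group. The log2 fold change of Nr1d1 was -0.33 ± 0.08 with siNtc, which misses 1.3-fold, and -0.43 ± 0.08 with siErk3 and -0.41 ± 0.08 with siMk5, which pass it. These values lay close to the limit. Without siNtc BSA replicate 1 or siNtc PA replicate 3 the value with siNtc was -0.39 or -0.40 and passed, without siErk3 PA replicate 3 the value with siErk3 was -0.37 and did not, and without replicate 3 of siMk5 BSA or siMk5 PA the value with siMk5 was -0.37 and did not. Nr1d2 was at 62.1, 57 and 58.6 CPM in siNtc BSA and 72.3, 71.1 and 76.5 CPM in siNtc PA. Its log2 fold change was 0.31 ± 0.06, 0.26 ± 0.06 and 0.23 ± 0.06, under 1.3-fold in each case with adjusted p between 4.36e-05 and 0.00152 in edgeR. The ratio of Nr1d1 to Bmal1 per length was 3.81 to 5.10 in the BSA libraries and 2.48 to 3.14 in the PA libraries, without overlap.

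Dbp, which encodes the D-box activator and is the output member, fell most of all 10. It was at 9.55, 11.4 and 13.2 CPM in siNtc BSA, 13.8, 12.2 and 14.2 in siErk3 BSA and 11.7, 13.9 and 14.9 in siMk5 BSA. In PA it was at 4.63, 4.29 and 3.33 CPM in siNtc, 2.58, 3.98 and 4.62 in siErk3 and 4, 4.71 and 4.54 in siMk5. The lowest BSA library, siNtc replicate 1, was still above every PA library. The log2 fold change of Dbp was -1.49 ± 0.15, -1.85 ± 0.14 and -1.61 ± 0.14, or 2.80-fold, 3.62-fold and 3.05-fold lower, with siNtc, siErk3 and siMk5. The interaction with siErk3 was -0.37 ± 0.21 (edgeR adjusted p = 0.836), so a stronger fall with siErk3 was not established, and its 95% interval ran from -0.80 to 0.06. Without siErk3 PA replicate 1 this interaction was -0.168.

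**Figure D2:**
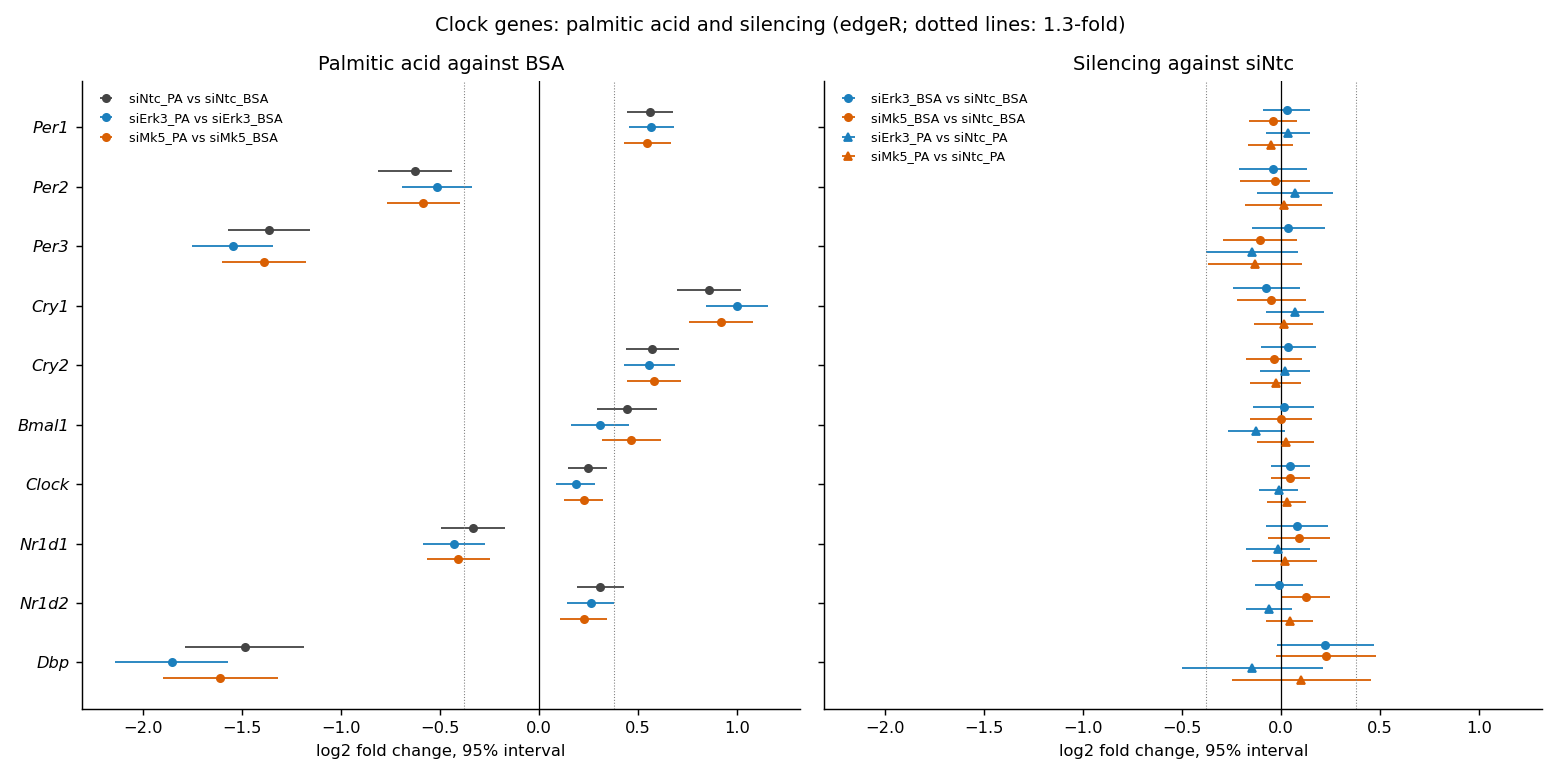
Log2 fold changes (horizontal axes, with 95% intervals) of the 10 clock genes (vertical axis) for PA against BSA with each pool on the left and for each silencing against siNtc on the right, circles on the right marking BSA and triangles PA. The PA values run from -1.85 for Dbp to 1.00 for Cry1, whereas the silencing values lie between -0.15 and 0.23.

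No clock gene was called for the silencing of either kinase. Over the 4 comparisons with siNtc, 0 of 40 values were called by edgeR and 0 by DESeq2, with log2 fold changes from -0.15 to 0.23, a lowest adjusted p of 0.529 and 1 unadjusted p below the threshold in edgeR. Of all genes tested, 0.785% were called for siErk3 and 0.0643% for siMk5 in BSA, and 0.556% for siErk3 and 0.547% for siMk5 in PA. An unadjusted p below 0.05 in edgeR was found for 2316 and 1501 of 21772 genes with siErk3 and siMk5 in BSA, and for 1802 and 1478 in PA. The 95% intervals of the 40 values lay between -0.50 and 0.48, both limits being those of Dbp, and for Clock they lay between -0.11 and 0.15. For Dbp the log2 difference was 0.22 ± 0.12 with siErk3 and 0.23 ± 0.12 with siMk5 in BSA, and -0.15 ± 0.17 and 0.10 ± 0.17 in PA (SE). Single libraries moved these values, and the BSA values were 0.134 and 0.13 without siNtc BSA replicate 1. The siErk3 and siMk5 comparisons within a medium share the siNtc libraries. Nr1d2 was at 66.1, 64 and 63.5 CPM in siMk5 BSA against 62.1, 57 and 58.6 CPM in siNtc BSA, without overlap, but its log2 difference of 0.13 ± 0.06 had an adjusted p of 0.696 in edgeR. Per3 was the other member without overlap in that comparison (log2 difference -0.11 ± 0.09), beside 12.3% of all genes. The groups did not lie apart for any member in siErk3 BSA, siErk3 PA or siMk5 PA against siNtc, where they did for 17.4%, 12.1% and 12% of all genes.

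No clock gene was called between the silenced groups or for a difference in the response to PA. Between siErk3 and siMk5, 0 of 10 members were called in BSA and 0 in PA by edgeR and by DESeq2, beside 0.588% and 1.03% of all genes called. In each medium 1 member had an unadjusted p below 0.05 in edgeR (Nr1d2 in BSA, Bmal1 in PA), as did 1848 and 2222 of 21772 genes. In the interactions of siErk3 and siMk5 with PA, 0 of 10 members were called in either case by both tools, beside 0.0367% and 0.211% of all genes called. No member had an unadjusted p below 0.05 in edgeR in these interactions, where 1329 and 1617 of 21772 genes did. The largest interaction was the value for Dbp with siErk3 given above, and with siMk5 that of Dbp too, at -0.12 ± 0.21, which was -0.0172 without siNtc PA replicate 1.

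Other genes of the clock loops moved in both directions in PA. Of 12 such genes, 5 rose and 3 fell with siNtc, 5 rose and 4 fell with siErk3, and 4 rose and 3 fell with siMk5, with medians of the log2 fold change of 0.44, 0.19 and 0.04. Of all genes tested, 30.6%, 32.1% and 29.7% were called in these comparisons, with medians of -0.03, -0.01 and -0.01. Nfil3, the D-box repressor, was at 28.6 CPM in siNtc BSA and 86.0 CPM in siNtc PA, with log2 fold changes of 1.58 ± 0.06, 1.35 ± 0.06 and 1.53 ± 0.06 with siNtc, siErk3 and siMk5. Tef, a D-box activator like Dbp, fell by 0.68 ± 0.05, 0.72 ± 0.05 and 0.60 ± 0.05 on the log2 scale. The other D-box activator, Hlf, had 0 to 8 counts per library and was not called. The per-length ratio of Nfil3 to Dbp was 2.86 to 4.25 in the BSA libraries and 24 to 48.4 in the PA libraries, so every PA library exceeded every BSA library.

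Ciart, a repressor of the Bmal1 and Clock complex, had the largest rise of these genes. It was at 1.33, 1.63 and 1.51 CPM in siNtc BSA and at 8.5, 9.12 and 8.99 CPM in siNtc PA, with log2 fold changes of 2.55 ± 0.14, 2.27 ± 0.12 and 2.11 ± 0.13 with siNtc, siErk3 and siMk5. The 2 genes of the Dec repressors diverged, since Bhlhe40 rose by 0.88 ± 0.05, 0.73 ± 0.05 and 0.87 ± 0.05 and Bhlhe41 fell by 0.85 ± 0.07, 0.90 ± 0.07 and 0.86 ± 0.07. Rora, an activator that competes with the Rev-Erb receptors for their sites, rose from 7.12 to 13.3 CPM with siNtc (log2 fold change 0.90 ± 0.12). Npas2, a relative of Clock, had 6 to 46 counts per library. It was called higher with siNtc (1.01 ± 0.32) and siErk3 (0.63 ± 0.26), but the siErk3 call was lost with DESeq2 (adjusted p = 0.112), with the replicate block (adjusted p = 0.0555) and without siErk3 BSA replicate 1 or 3 or siErk3 PA replicate 1 or 2, and the siNtc call without siNtc PA replicate 2 (adjusted p = 0.0638). Npas2 was the only one of these genes called in a comparison between silenced groups, with 1.66 CPM in siErk3 PA and 0.621 CPM in siMk5 PA (log2 difference 1.42 ± 0.30, edgeR adjusted p = 0.00516). This call was lost with only the compared groups in the fit (adjusted p = 0.056) and without siMk5 PA replicate 2, its lowest library (adjusted p = 0.0949). Against siNtc, 0 of the 12 loop genes were called for a silencing. With siErk3 in BSA, 7 had an unadjusted p below 0.05 in edgeR, as did 2316 of 21772 genes. Their groups lay apart for 6, beside 17.4% of all genes, and the median was 0.13, beside 0.02. With siMk5 in BSA, siErk3 in PA and siMk5 in PA, 0, 0 and 1 had such a p, beside 1501, 1802 and 1478 of all genes.

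**Figure D3:**
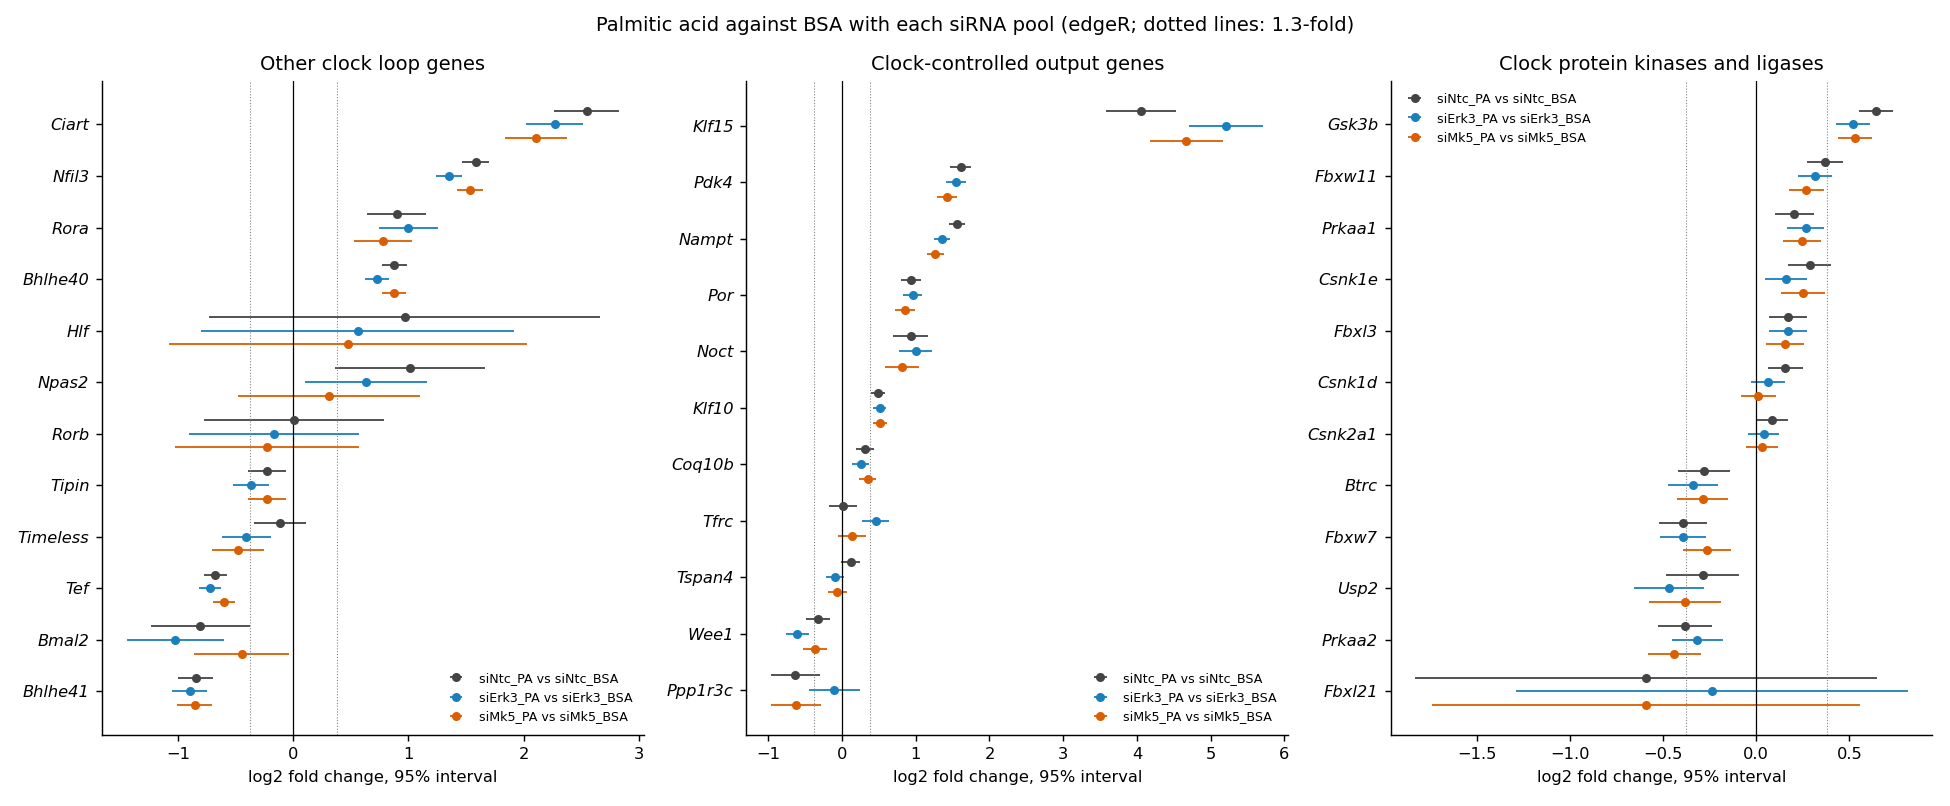
Log2 fold changes of PA against BSA (horizontal axes, with 95% intervals) for other clock loop genes, clock-controlled output genes, and kinases and ubiquitin ligases of clock proteins, in 3 panels with different scales. Klf15, Ciart, Pdk4, Nampt and Nfil3 lie furthest to the right, and Tef and Bhlhe41 lie to the left of 0 with all 3 pools.

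Among genes known as clock outputs, more were called higher than lower. Of 12 listed, 11 were tested, and 6 rose and 1 fell with siNtc, 7 rose and 1 fell with siErk3, and 6 rose and 1 fell with siMk5, with medians of 0.49, 0.51 and 0.52. Of all genes, 15.5%, 15.8% and 15.1% were called higher and 15.1%, 16.3% and 14.6% lower. The medians of all genes were -0.03, -0.01 and -0.01. Klf15, a factor for amino acid and lipid use in muscle, was at 0.21, 0.29 and 0.57 CPM in siNtc BSA and at 6.30, 6.66 and 5.81 CPM in siNtc PA (log2 fold change 4.06 ± 0.23), although it had as few as 2 counts in a BSA library. Pdk4, which limits pyruvate oxidation, rose by 1.61 ± 0.07, and Nampt, the enzyme of NAD salvage, by 1.56 ± 0.05 on the log2 scale with siNtc. Por (0.94 ± 0.06), Noct (0.93 ± 0.11) and Klf10 (0.49 ± 0.04) rose as well with siNtc, and with the other pools. Ppp1r3c, a glycogen-targeting subunit, fell with siNtc (-0.63 ± 0.16) and siMk5 (-0.63 ± 0.16). Ppp1r3c was also the only output gene called for a silencing against siNtc, at 2.03 CPM in siErk3 BSA and 3.28 CPM in siNtc BSA (log2 difference -0.70 ± 0.16, edgeR adjusted p = 0.0167). This call was lost without siNtc BSA replicate 2 or any of the 3 siErk3 BSA libraries, with adjusted p from 0.0581 to 0.175. In the same comparison Nampt passed the adjusted p but stayed under 1.3-fold, at 34.0 CPM in siErk3 BSA and 28.3 CPM in siNtc BSA. Its log2 difference was 0.26 (edgeR adjusted p = 0.0119) and ran from 0.24 to 0.30 with 1 library left out.

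Among 12 genes of kinases and ubiquitin ligases that set the life span of clock proteins, 1 rose and 2 fell with each pool, with medians of 0.12, 0.05 and 0.02, beside the 30.6%, 32.1% and 29.7% of all genes called. By the adjusted p alone, 10, 9 and 9 of the 12 passed in edgeR with siNtc, siErk3 and siMk5, beside 45.1%, 47.1% and 44.3% of all genes. Gsk3b, a kinase that phosphorylates several clock proteins, rose from 141 to 220 CPM with siNtc (log2 fold change 0.64 ± 0.05). Fbxw7 (-0.39 ± 0.06) and Prkaa2, a catalytic subunit of AMP-activated kinase (-0.38 ± 0.07), fell with siNtc, but each missed 1.3-fold without 1 library (-0.36 for Fbxw7 without siNtc BSA replicate 1, -0.34 for Prkaa2 without siNtc PA replicate 3). The genes called lower were Fbxw7 and Usp2 with siErk3, and Prkaa2 and Usp2 with siMk5. Usp2 missed 1.3-fold with siErk3 without siErk3 BSA replicate 3 (-0.37). With siMk5 it did so without a filter (-0.377) and without siMk5 BSA replicate 1 (-0.31) or siMk5 PA replicate 2 (-0.34). Csnk1d and Csnk1e, the casein kinases that phosphorylate Per proteins, had values of 0.16 ± 0.05 and 0.29 ± 0.06 and were not called. No gene of this list was called for a silencing against siNtc. Prkaa2 passed the adjusted p alone with siErk3 in PA, at 28.6 CPM against 22.9 CPM in siNtc PA (log2 difference 0.32, edgeR adjusted p = 0.0155).

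Genes that respond to resetting signals were described beside Per1. Of 10 genes responsive to cAMP or serum, 9 rose and 1 fell with siNtc, 8 rose and 1 fell with siErk3, and 9 rose and 1 fell with siMk5, with medians of 1.21, 1.01 and 1.22. Of all genes, 30.6%, 32.1% and 29.7% were called with siNtc, siErk3 and siMk5, with medians of -0.03, -0.01 and -0.01. Fos rose from 5.19 to 21 CPM with siNtc (log2 fold change 2.00 ± 0.17), and Nr4a2 from 12.5 to 35.6 CPM (1.48 ± 0.08), while Sik1, a kinase that dampens light resetting, fell by 0.81 ± 0.05 on the log2 scale. Of 10 genes responsive to glucocorticoids, 9 were tested, and 6 rose and 1 fell with each pool, Per1 being among those that rose. Their medians were 0.57, 0.58 and 0.55, and the shares and medians of all genes are those given above. Mt2 (1.81 ± 0.06), Errfi1 (1.5 ± 0.10), Klf9 (1.04 ± 0.07) and Ddit4 (0.89 ± 0.06) were higher with siNtc, whereas Tsc22d3 was at -0.07 ± 0.06 and was not called. Fkbp5 was at -0.31 ± 0.07 with siNtc, under the fold limit, and was called lower with siErk3 (-0.48 ± 0.06) and siMk5 (-0.50 ± 0.07).

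Genes that share the promoter elements of the members moved in both directions. Of 393 tested genes with a D-box in the 250 bases before the start site, 17% passed as higher and 9.92% as lower in PA (siNtc), beside 15.5% and 15.1% of all genes, and their median was -0.03 on the log2 scale. Of 1363 genes with an E-box, 23.2% were called higher and 13% lower, and the median was 0.08, and with siErk3 and siMk5 the shares called higher were 23.7% and 22.9%. Of 399 genes with a Rev-Erb/ROR element, 15.8% were called higher and 14% lower with siNtc. The other patterns, which no member had in this window, were counted too. Of 333 genes with a cAMP response element, 20.4% were called higher and 14.4% lower with siNtc, with a median of 0.095. Of 985 genes with the glucocorticoid pattern, 13.7% were called higher and 14.2% lower, with a median of -0.062. A higher share of rises than falls was thus not particular to the E-box. These shares are descriptions, and the base composition of the promoters was not matched.

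**Figure D4:**
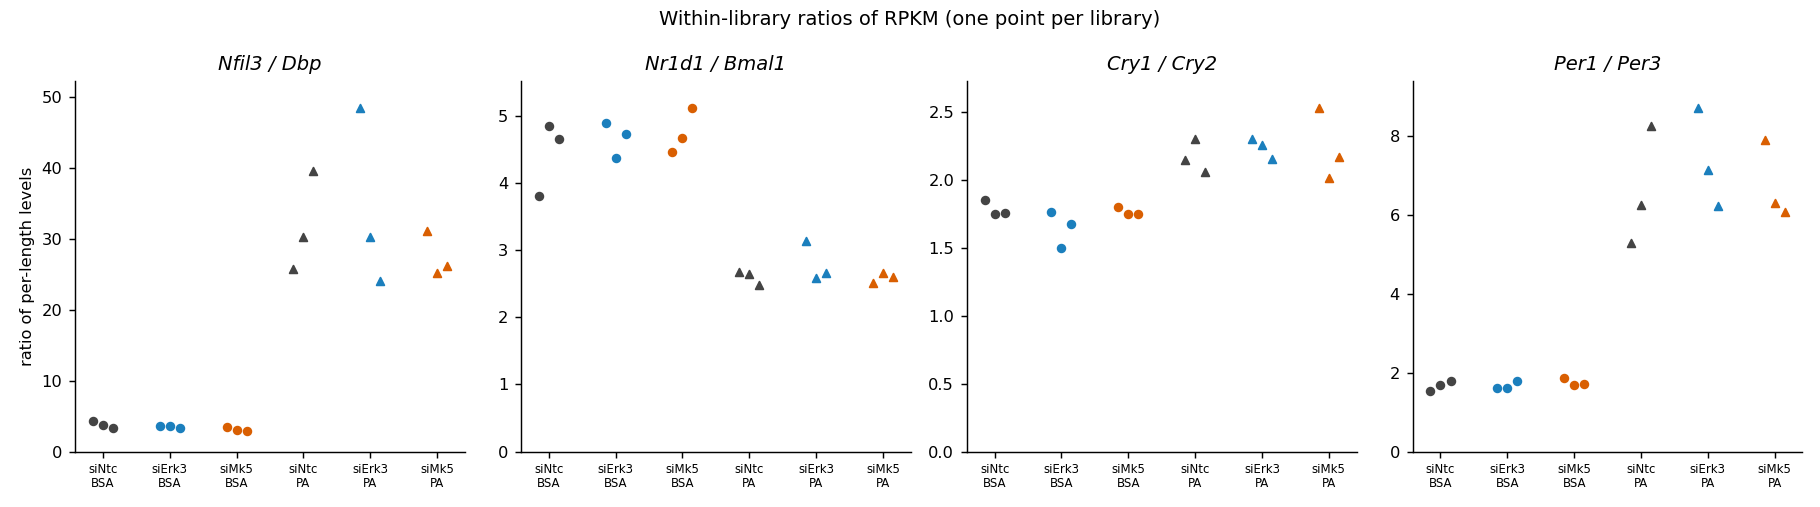
Ratios of per-length levels of gene pairs within each library (vertical axes from 0, no unit) by group, with 1 point per library, circles for BSA and triangles for PA. Nfil3 to Dbp, Cry1 to Cry2 and Per1 to Per3 were higher in all 9 PA libraries than in all 9 BSA libraries, and Nr1d1 to Bmal1 was lower.

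Within PA, libraries of a group differed in Per3 and Dbp together. In siErk3 PA, replicate 1 had the lowest Per3 and Dbp of the 9 PA libraries (9.15 and 2.58 CPM) and the highest Nr1d1 (43.7 CPM), Nr1d2 (79.3 CPM) and Clock (150 CPM). In siNtc PA, replicate 3 had the lowest Per3 and Dbp of its group and the highest Nr1d1 and Clock, and in siMk5 PA replicate 1 had the lowest Per3 and Dbp and the highest Nr1d1 and Clock. Pax7 and Mki67 followed the order of Per3 in siErk3 PA and siNtc PA. Pax7, a marker of undifferentiated muscle cells, was at 15.9, 21.3 and 25.2 CPM in siErk3 PA and at 25.8, 22.8 and 20.6 CPM in siNtc PA, and Mki67, made in dividing cells, was at 153, 187 and 199 CPM and at 202, 185 and 173 CPM in the same libraries. In siMk5 PA, Pax7 was at 18.7, 20.7 and 22.6 CPM, in the order of Per3, but Mki67 was at 176, 175 and 183 CPM and was lowest in replicate 2. The summed level of 6 myoblast markers was 870 to 944 CPM in the BSA libraries and 363 to 479 CPM in the PA libraries. Of these 6, 5 were called lower with each pool, beside 15.1%, 16.3% and 14.6% of all genes with siNtc, siErk3 and siMk5. Of 10 myotube markers, 5 were called lower with siNtc, 1 with siErk3 and 1 with siMk5, beside the same shares. Their medians were -0.36, -0.29 and -0.16, beside -0.03, -0.01 and -0.01 for all genes. The part of these changes in marker levels in the values of Per3 and Dbp was not tested.

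**Figure D5:**
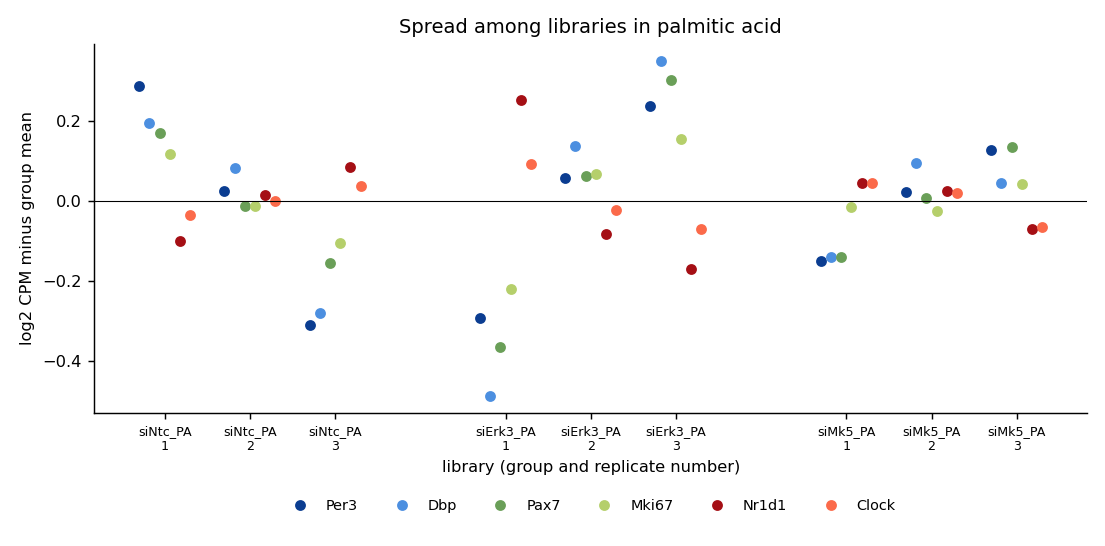
Difference of log2 CPM from the mean of the group (vertical axis) in each of the 9 PA libraries (horizontal axis) for Per3, Dbp, Pax7, Mki67, Nr1d1 and Clock. In siErk3 PA replicate 1, Per3 lay at -0.29, Dbp at -0.49 and Pax7 at -0.36, while Nr1d1 lay at 0.25, and the sign was the opposite in siErk3 PA replicate 3.

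For each member, the 2 genes with the most similar pattern were found by the Pearson correlation of log2 CPM over the 18 libraries, which mainly follows the split between the media. For Per3 they were Notch3 and Itga11, with r of 0.994 for both over 18 libraries, 0.965 and 0.932 over the 9 PA libraries and 0.33 and 0.308 over the 9 BSA libraries. For Dbp they were Evl and Prrx2, with r of 0.995 and 0.994 over 18 libraries, 0.948 for both in PA and 0.894 and 0.854 in BSA. The values within a medium come from the libraries used to pick the partners, so they are not independent of that choice. Cry1 was closest to Phkg2 and Slc27a1 (0.992 and 0.991), Cry2 to Ciapin1 and Hid1 (0.992 and 0.992), and Per1 to Skic3 and Hinfp (0.99 and 0.989). Per2 was closest to Gmpr and Obsl1 (0.97 and 0.964), Bmal1 to Rasa1 and Ptprk (0.976 and 0.965), and Clock to Tnpo1 and Pum2 (0.984 and 0.983), the latter with 0.956 and 0.931 within PA. Nr1d1 had the lowest values, with Tns3 and Arhgap23 (0.951 and 0.948), and Nr1d2 was closest to Bnip3l and Ythdc1 (0.965 and 0.964). The libraries of a pair share depth and RNA, and no clock gene was the closest partner of another.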

How the data were processed

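Poly(A) RNA of 18 C2C12 myotube libraries was analysed, grouped by the sample labels. The authors deposited raw counts of read pairs per gene. Per the file headers, they were made with featureCounts 2.0.0 by strand (setting 2), with primary alignments of mapping quality 3 or more and Ensembl 105 on GRCm39. The submitters' processing notes name mm10 instead, with STAR and Trim Galore, and the coordinates are those of GRCm39. The authors also deposited log2 values, which were checked to be the counts over size factors plus 1 (largest relative deviation 3.63e-14) and were not used further.

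Genes with at least 10 counts in total (21772 of 55414) were tested with edgeR 4.0.16 (limma 3.58.1, R 4.3.3) after TMM normalisation, in 1 quasi-likelihood fit across all genes and 18 libraries with a coefficient per group. Calls needed a Benjamini-Hochberg adjusted p below 0.05 over all genes and a fold change above 1.3. Standard errors are the log2 fold change over the square root of F. DESeq2, named in the submitters' notes, was run (1.42.0) as an alternative, together with its size factors, another filter or none, a replicate block, only the groups compared, and each library left out. Symbols, start sites and promoter sequence came from GENCODE M39 and the GRCm39 genome. Per-library values were computed in Python 3.11.15, with exact permutation tests in scipy 1.17.1. The fit was tested on simulated counts. Named genes were the 10 members, the members of the lists and the 2 genes most similar to each member. A gene of the loop list is not reported here and is in none of its counts. The members and lists were chosen with earlier results of these data known. The total count per library, 13041979 to 28496727, sets the precision. It is low for genes with few counts, such as Hlf, Klf15 and Npas2, and among the members it is lowest for Dbp. Replicate numbers were not treated as pairs in the main fit, as described in the closing section.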

Additional observations from a re-analysis of the deposited data

How the results depend on the processing

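The counts of clock genes called, 7, 7 and 8 for PA with siNtc, siErk3 and siMk5 and 0 in the other 8 comparisons, were the same with DESeq2, its size factors, both other filters, the replicate block and only the groups compared, whereas the adjusted p alone gave 10 with each pool. With each library left out in turn they ran from 6 to 8 with siNtc, from 6 to 7 with siErk3 and from 7 to 8 with siMk5, and stayed at 0 elsewhere. Values of silencing in PA near 0 changed sign. For siErk3 against siNtc, Dbp ran from -0.292 (without siErk3 PA replicate 3) to 0.0545 (without siErk3 PA replicate 1) and Per3 from -0.277 (without siNtc PA replicate 3) to 0.0112 (without siNtc PA replicate 1). For siMk5 against siNtc, Dbp ran from -0.0131 (without siNtc PA replicate 3) to 0.207 (without siNtc PA replicate 1) and Per3 from -0.262 to 0.0281 without the same libraries. In BSA, Dbp ran from 0.134 to 0.336 with siErk3 and from 0.13 to 0.333 with siMk5, in each case without siNtc BSA replicate 1 and 3. The Dbp interactions ran from -0.515 (without siErk3 PA replicate 3) to -0.168 (without siErk3 PA replicate 1) with siErk3, and from -0.233 (without siNtc PA replicate 3) to -0.0172 (without siNtc PA replicate 1) with siMk5. None of these was called. Replicate numbers are shared by the groups, but the deviations of libraries with the same number had mean correlations from -0.4 to 0.33 over the comparisons, and in none did all 3 pairs exceed 0.1. Single pairs among the PA libraries reached 0.52 and 0.43 for siErk3 with siMk5 (replicates 1 and 3). For siErk3 with siNtc they reached -0.61 and -0.59 (replicates 1 and 3). Whether PA libraries of the same number share a source of variation was not tested. The replicate block moved the count of all genes called with PA from 6661 to 6599 with siNtc and left the calls of the 10 clock genes as they were, but ended the call of Npas2 for PA with siErk3 (adjusted p = 0.0555 in edgeR). Over the other settings apart from the fold limit, all genes called for silencing in BSA ran from 158 to 233 for siErk3 and from 10 to 61 for siMk5, whereas the PA comparisons gave 71 to 208 and 111 to 172. With 1 library left out, the BSA counts of 171 and 14 ran from 113 (without siNtc BSA replicate 2) to 144 for siErk3 and from 6 (without siNtc BSA replicate 2) to 25 (without siMk5 BSA replicate 1) for siMk5, with 9 and 7 without siNtc BSA replicate 1 and siMk5 BSA replicate 3, and the PA counts of 121 and 119 from 85 to 168 and from 85 to 128. Over the other settings, the interactions of siErk3 and siMk5 with PA gave 0 to 72 and 33 to 130 genes called. With 1 library left out, these interactions gave 0 to 24 and 22 to 67. For siErk3 against siMk5, the other settings gave 121 to 201 in BSA and 178 to 297 in PA. Leaving out 1 library gave 104 to 121 in BSA and 179 to 240 in PA. A single time point without synchronisation limits all values to levels, and low counts limit Hlf, Klf15, Npas2 and Mapkapk5.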
